A study of Mus musculus with 4 samples.

Results

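The smooth muscle contractile and cytoskeletal module was described here as 35 genes of the 32285 listed in the count matrices of sorted fetal mouse lung cells. The genes were matched by symbol from a given list, and all 35 had a row. They cover 2 transcriptional regulators, 2 smooth muscle actins, 5 genes of the myosin motor and its switches, 11 thin filament genes, 12 genes of dense bodies and adhesions, and 3 genes of calcium handling and channels. The question was which of them were on in Myrf mutant cells that still carried transcripts of Wt1, a transcription factor of the mesothelium. Their levels were set beside smooth muscle cells and beside mesothelial cells of control lungs.

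Smooth muscle contracts when myosin pulls on thin filaments of actin and tropomyosin that are anchored in dense bodies and adhesion plaques, and calcium starts the cycle through phosphorylation of the myosin light chain. Many of these genes are switched on together by serum response factor (SRF), which binds a short motif called the CArG box, and by its cofactor myocardin. The mesothelium is the epithelial sheet that covers the lung, and in the embryo it can give rise to mesenchymal cells, among them smooth muscle. Several module genes, such as filamin A, vinculin and zyxin, serve the actin cytoskeleton of most cells, whereas others, such as Myh11, Actg2 and Cnn1, are largely restricted to smooth muscle.

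The study profiled living tdTomato+ (DAPI-) lung cells of mouse embryos at E16.5 (embryonic day) in droplets, 1 cell at a time, by sequencing transcripts from their 3′ ends, in 2 libraries labelled Cre control and 2 labelled mutant. Mutants carried Myrf Fl/Fl, the tamoxifen-dependent Cre Wt1creERT2 and the R26TdTomato reporter, and tamoxifen was injected into the mothers at E12.5. The controls are labelled as Cre controls, were sorted on the same reporter and had the same tamoxifen. The labels do not spell out their Myrf alleles, and the cross as written has Myrf Fl/Fl in both parents. Each genotype was a pool of 3 to 5 lungs, assigned by the shape of lung and cells, with PCR typing afterwards. Wt1creERT2 marks cells that expressed Wt1 at the time of tamoxifen, and their descendants. Whether both libraries of 1 genotype stem from different pools is not stated, so p-values measure only the spread between these libraries, which may be technical.

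After filters, 281 and 3503 control cells and 411 and 4275 mutant cells remained, with 8175944 to 80755665 UMIs (unique transcript molecules) per library. Median UMIs per cell were 29175 and 14322 in the controls and 38719 and 15957 in the mutants. Libraries shared between 0 and 5 cell barcodes per pair. In control 2, 2041 cells lay in a cluster that met 6 mesothelial markers but was led by haemoglobin genes and had 84.0% of all markers within 2-fold of the other cells of the library. It was treated as mixed and left out, and the count that depends on this is given with it. The labelled cell type was tdTom+ mesothelial cells, and mesothelial-like clusters held 115 and 740 of the control cells. In the mutants, the clusters of that name held 3 and 4 cells. Instead, 260 and 1422 mutant cells lay in a cluster led by Des, Tnnt2 and Actc1, called the Des cluster here, against 1 and 20 control cells. Clusters were made without the 35 genes.

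Cells were compared in 4 kinds. Wt1 mutant cells had at least 1 Wt1 UMI and fewer than 3 Myh11 UMIs per 10000, and there were 116 in mutant 1 and 578 in mutant 2. Smooth muscle cells had at least 3 Myh11 UMIs per 10000 and no Wt1 UMI, 80 and 399 in the mutants and 25 and 136 in the controls. Dual cells were mutant cells that met both conditions, 64 and 89. The control mesothelial cells were the 115 and 740 cells of the mesothelial-like clusters. Myh11 and Wt1 define these classes, so their levels are given without a test. The level of a gene is its share of all UMIs summed over the cells of a class in 1 library, scaled to 1000000 UMIs (CPM). In a 3′ assay CPM does not scale with transcript length, and levels are compared between classes rather than between genes.

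A Wt1 UMI was found in 180 of 411 cells of mutant 1 (43.8%, exact 95% interval 38.9 to 48.7) and in 667 of 4270 cells of mutant 2 (15.6%, 14.5 to 16.7). Free RNA in the droplets sets a background for such shares. Among epithelial-, endothelial- and immune-like cells of the same libraries, 2 of 27 (7.41%) and 4 of 115 (3.48%) had a Wt1 UMI, at median depths of 46181 and 10089 UMIs. Of the mutant cells with a Wt1 UMI, 91.7% and 79.5% lay in the Des cluster. These intervals cover counting error only.

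Myrf, the targeted gene and a membrane-bound transcription factor, was lower in the mutant cells. It stood at 26.4 and 15.2 CPM in Wt1 mutant cells and at 140 and 101 CPM in control mesothelial cells, and the log2 change was -2.50 (SE 0.28, edgeR adjusted p = 0.00382). The labels do not say which part of Myrf is deleted, so 3′ tags outside it may still be counted. Wt1 itself stood at 43.7 and 65.0 CPM in the Wt1 mutant cells and at 150 and 152 CPM in control mesothelial cells.

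Transcripts of the module made up 1.26% and 1.12% of all UMIs in Wt1 mutant cells. The share was 0.564% and 0.588% in control mesothelial cells and 2.25% and 2.22% in mutant smooth muscle cells. The Wt1 mutant cells lay between the other 2 classes in both libraries. Wt1 cells over the Myh11 threshold are left out of their class, and smooth muscle cells are chosen by the same threshold. The step below smooth muscle cells therefore follows in part from the class rule. Dual cells, at 2.41% and 2.14%, overlapped the smooth muscle cells. Taking 50 CPM in both mutant libraries as on, 23 of the 35 genes were on in Wt1 mutant cells. Of these, 20 were also on in control mesothelial cells of both libraries. The other 3 were Acta2, Actg2 and Myh11.

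**Figure D1:**
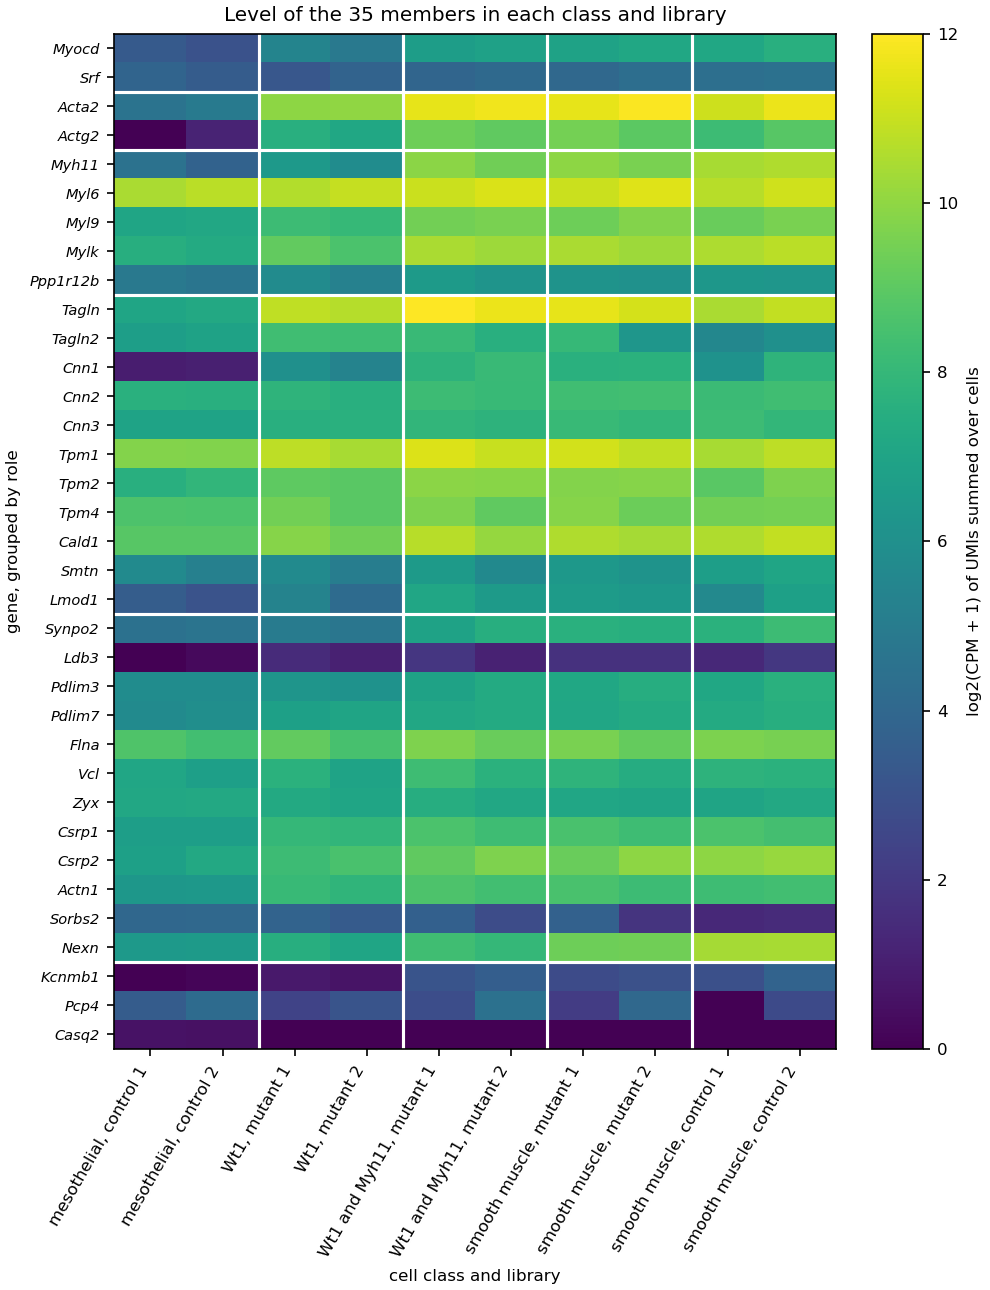
Level of the 35 genes, as log2(CPM + 1) of summed UMIs, in the control mesothelial, Wt1 mutant, dual and smooth muscle cells of each library; rows are grouped by role, in the order transcription, actin, myosin, thin filament, dense body and adhesion, and calcium and channel. Actg2 and Cnn1 are darkest in control mesothelial cells and lighter in Wt1 mutant and smooth muscle cells, while Zyx and Cnn2 have much the same shade in every column.

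The regulators come first. Myocd encodes myocardin, the SRF cofactor that drives smooth muscle genes, and lies at chr11:65176561-65269989 (mm10, GENCODE vM21). It stood at 41.9 and 27.6 CPM in Wt1 mutant cells, 9.38 and 7.16 CPM in control mesothelial cells, and 118 and 142 CPM in mutant smooth muscle cells. The groups did not overlap. Myocd rose over mesothelial cells with a log2 change of 2.15 (SE 0.25, edgeR adjusted p = 0.00415). It was below smooth muscle cells with a log2 change of -2.0 (SE 0.18, edgeR adjusted p = 0.000187), at 35.4% and 19.4% of their level in the same library. Srf, the DNA-binding partner, was low everywhere, at 8.58 and 13.3 CPM in Wt1 mutant cells and 13.5 and 10.2 CPM in control mesothelial cells, and these overlapped (log2 change 0.02, SE 0.33, edgeR adjusted p = 0.979).

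Because SRF acts through the CArG box, the RefSeq promoters of the module (build GRCm38.p6, 250 bases before to 50 after each start) were searched for it. A box was counted only as an exact match to CC, 6 bases of A or T, and GG. Boxes that depart from this form or lie outside the window were not counted, so no match does not mean no box. Both strands are covered by 1 search because the motif is its own reverse complement. Of the 29 module genes with an entry, 6 held a box (20.7%): Cnn2, Ldb3, Myl6, Myl9, Srf and Vcl. Across all genes in the table, 488 of 27025 did (1.81%). Myocd, Actg2, Myh11, Tagln, Csrp2 and Nexn had no entry. Of the 6 genes with a box in this window, Myl9 rose in Wt1 mutant cells and the other 5 were not called. A match is a description of these letters and not of binding. These 4 windows are shown because they set the gene that rose beside 3 that did not, with the box in capitals, at chr2:156775253-156775362 (plus strand), chr10:79988494-79988603 (plus), chr14:20929148-20929230 (plus) and chr17:46556185-46556294 (minus) in that order.
Myl9: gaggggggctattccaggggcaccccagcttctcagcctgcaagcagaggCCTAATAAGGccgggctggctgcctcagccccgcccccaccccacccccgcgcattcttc
Cnn2: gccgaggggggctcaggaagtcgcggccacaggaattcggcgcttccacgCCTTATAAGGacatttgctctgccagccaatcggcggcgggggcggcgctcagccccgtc
Vcl: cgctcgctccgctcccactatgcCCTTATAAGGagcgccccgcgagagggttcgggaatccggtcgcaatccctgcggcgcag
Srf: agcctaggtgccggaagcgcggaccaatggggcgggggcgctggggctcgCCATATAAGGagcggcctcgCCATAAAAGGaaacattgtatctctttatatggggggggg
The boxes begin 161 bases before the start in Myl9, 56 in Cnn2 and 227 in Vcl, and 82 and 62 in Srf, which has a pair.

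Both smooth muscle actins were on. Acta2, alpha smooth muscle actin (chr19:34241090-34255590), stood at 980 and 1032 CPM in Wt1 mutant cells. It was at 22.8 and 30.3 CPM in control mesothelial cells and at 2989 and 3944 CPM in mutant smooth muscle cells. No 2 of these classes overlapped, and the log2 change over mesothelial cells was 5.29 (SE 0.32, edgeR adjusted p = 0.000927). Against smooth muscle cells it was -1.81 (SE 0.07, edgeR adjusted p = 2.41e-06). Actg2, the gamma actin of gut and airway smooth muscle, stood at 191 and 141 CPM in Wt1 mutant cells and at 711 and 502 CPM in mutant smooth muscle cells. In control mesothelial cells it was 0 CPM in control 1, where 3 counts would be 0.722 CPM, and 1.30 CPM in control 2. The log2 change of Actg2 over mesothelial cells, 7.46 (SE 0.57, edgeR adjusted p = 0.00137), rests on those 0 and 21 UMIs and depends on the count prior.

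Free RNA and single cells of other types bear on these levels. In the epithelial-, endothelial- and immune-like cells of the mutant libraries, Acta2 summed to 465 and 220 CPM, which is 47.4% and 21.3% of the level in Wt1 mutant cells. In mutant 1, 1 cell held 86.9% of those Acta2 UMIs, and the median cell had 0.04 Acta2 UMIs per 10000, against 2.83 in the Wt1 mutant cells of that library. In mutant 2 the medians were 0 and 4.16. After thinning each cell to 5000 UMIs, 76.5% and 75.04% of Wt1 mutant cells had a Tagln UMI, against 13.0% and 20.5% of those other cells and 28.7% and 34.9% of control mesothelial cells. Without thinning, the Tagln shares were 94.8% and 84.9%, 63.0% and 33.0%, and 62.6% and 58.8%. For Cnn1 the thinned shares were 18.3% and 10.9% in Wt1 mutant cells and 8.70% and 3.85% in the other cells (38.8% and 25.3%, and 14.8% and 9.57%, without thinning). For 15 of the 35 genes, those other cells had at least 50% of the Wt1 mutant level in at least 1 library. Among them were Actg2, Cnn1, Lmod1, Tagln2 and genes that many cells use, such as Myl6 and Zyx. For Actg2 the share was 67.7% in mutant 1 and 21.4% in mutant 2. Of the Actg2 UMIs of those other cells in mutant 1, 1 cell held 92.0%, and the median cell had 0.

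Among the myosin genes, the switch rose with the actins. Mylk encodes myosin light chain kinase, which phosphorylates the light chain in response to calcium. It stood at 563 and 381 CPM in Wt1 mutant cells, 184 and 159 CPM in control mesothelial cells and 1404 and 1228 CPM in mutant smooth muscle cells. Its log2 change over mesothelial cells was 1.51 (SE 0.24, edgeR adjusted p = 0.012). Myl9, the regulatory light chain that the kinase acts on, was higher by 1.05 on the log2 scale (SE 0.21, edgeR adjusted p = 0.0244), having gone from 133 and 145 CPM to 295 and 258 CPM. Ppp1r12b, a targeting subunit of the phosphatase that removes the phosphate, was higher too (log2 change 0.85, SE 0.20, edgeR adjusted p = 0.0422), having gone from 27.9 and 24.5 CPM to 54.4 and 37.2 CPM. Myl6, the essential light chain shared by muscle and non-muscle myosin, was at 1587 and 1959 CPM against 1434 and 1725 CPM, and the ranges overlapped. All 4 were below mutant smooth muscle cells, by log2 changes of -1.54 for Mylk, -1.49 for Myl9, -0.65 for Ppp1r12b and -0.49 for Myl6 (edgeR adjusted p from 1.38e-05 to 0.00886).

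Myh11, the smooth muscle myosin heavy chain, is bounded by the class rule. It stood at 89.6 and 56.7 CPM in Wt1 mutant cells and 21.6 and 12.8 CPM in control mesothelial cells, and at 996 and 772 CPM in mutant smooth muscle cells. Mutant cells just under the rule, at 2 to 3 Myh11 UMIs per 10000, had 1058 and 2120 CPM of Acta2. Those just over it, at 3 to 4, had 1512 and 2959 CPM. Acta2 was thus already high just under the threshold. Of mutant cells with a Wt1 UMI, 35.6% (exact 95% interval 28.6 to 43.0) in mutant 1 and 13.3% (10.9 to 16.2) in mutant 2 were over the threshold, against 1.65% and 2.68% of Wt1 cells in the controls.

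**Figure D2:**
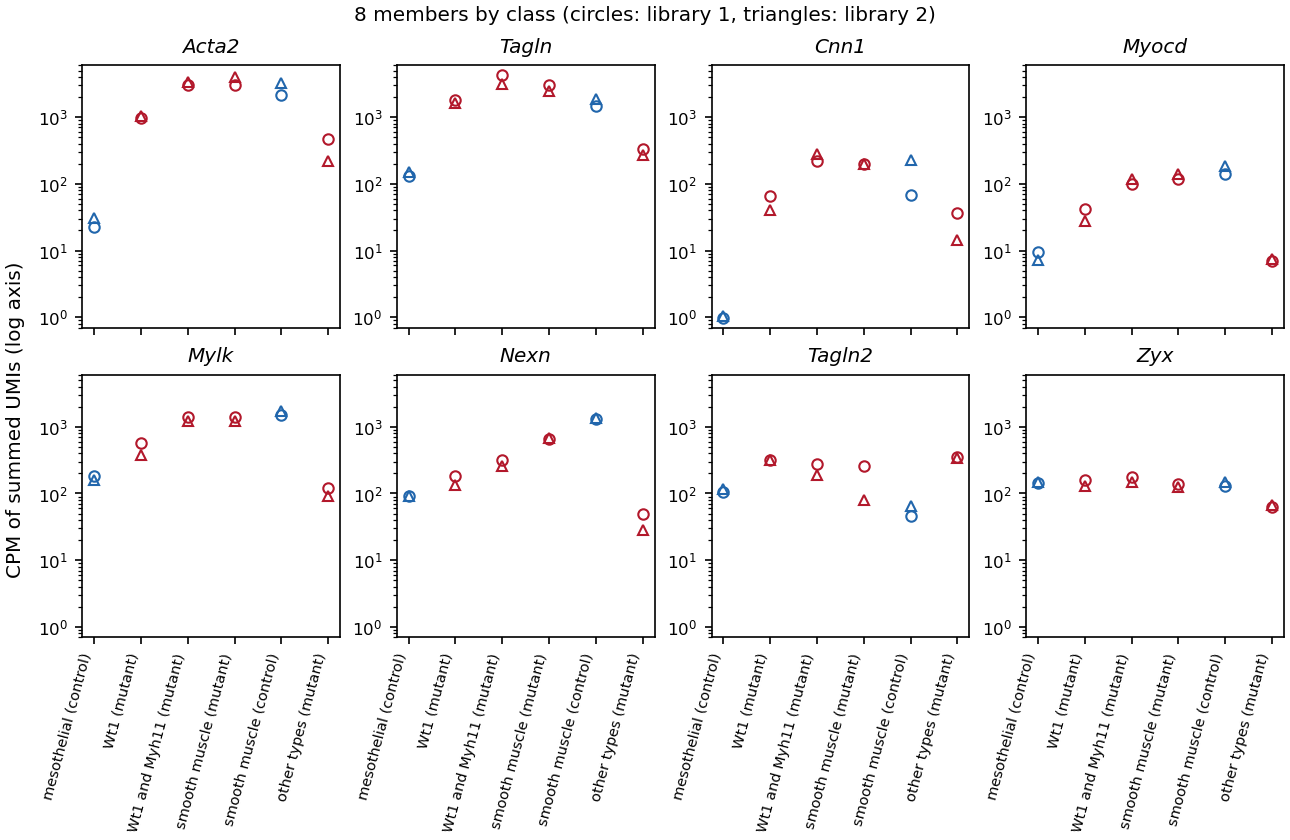
CPM of summed UMIs on a log axis for 8 of the genes in 6 classes, with circles for library 1 and triangles for library 2, blue for control and red for mutant libraries; other types are epithelial-, endothelial- and immune-like cells. Acta2, Cnn1, Myocd, Mylk and Nexn step up from mesothelial to Wt1 mutant to mutant smooth muscle cells, Tagln2 is highest in Wt1 mutant cells and in other types, and Zyx is level in the first 5 classes.

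Of the 11 thin filament genes, 5 rose over control mesothelial cells. Tagln (transgelin, an actin-bundling protein of smooth muscle, chr9:45929619-45936058) came closer to the smooth muscle level than the actins did, at 61.3% and 67.0% of it. It stood at 1830 and 1630 CPM in Wt1 mutant cells, 132 and 153 CPM in control mesothelial cells and 2983 and 2432 CPM in mutant smooth muscle cells. In the 2 control libraries, smooth muscle cells had 1446 and 1882 CPM of Tagln, a range that overlaps the Wt1 mutant cells. The log2 change of Tagln over mesothelial cells was 3.66 (SE 0.27, edgeR adjusted p = 0.00132). Cnn1, basic calponin, was at 65.0 and 40.2 CPM in Wt1 mutant cells and at 0.96 and 1.05 CPM in control mesothelial cells. Its log2 change was 5.69 (SE 0.31, edgeR adjusted p = 0.000927), and it reached 32.9% and 19.99% of the level in mutant smooth muscle cells. Lmod1, leiomodin, which nucleates actin filaments in smooth muscle, rose from 10.6 and 7.34 CPM to 40.7 and 17.2 CPM with a log2 change of 1.75 (SE 0.39, edgeR adjusted p = 0.0343).

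The tropomyosins lie along the actin filament and differed among themselves. Tpm2 rose from 190 and 238 CPM to 518 and 493 CPM (log2 change 1.30, SE 0.24, edgeR adjusted p = 0.0198). Tpm1 was higher in both mutant libraries, at 1789 and 1366 CPM against 879 and 843 CPM, but missed the threshold (log2 change 0.92, SE 0.25, edgeR adjusted p = 0.0609). Tpm4, the form of non-muscle cells, had a log2 change of 0.64 (SE 0.24, edgeR adjusted p = 0.148). Cald1, caldesmon, at 892 and 678 CPM against 469 and 478 CPM, missed it as well (edgeR adjusted p = 0.0826). Cnn2 and Cnn3, the more widely expressed calponins, and Smtn, smoothelin, did not pass either, with edgeR adjusted p-values of 0.702, 0.0897 and 0.99.

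Tagln2, a transgelin also found outside muscle, had another order of levels. It rose from 104 and 118 CPM in control mesothelial cells to 320 and 313 CPM in Wt1 mutant cells (log2 change 1.57, SE 0.22, edgeR adjusted p = 0.0084). Its level in smooth muscle cells was lower, at 262 and 79.3 CPM in the mutants and 45.9 and 64.0 CPM in the controls. The log2 change of Tagln2 against mutant smooth muscle cells was 1.09 (SE 0.31, edgeR adjusted p = 0.0505), which misses the threshold. In mutant 1, 1 smooth muscle cell held 29.4% of the Tagln2 UMIs of its class. Epithelial-, endothelial- and immune-like cells of the mutants had as much, 349 and 346 CPM.

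Among the 12 dense body and adhesion genes tested, 5 rose. Actn1, the alpha-actinin that cross-links filaments, went from 81.8 and 82.8 CPM to 275 and 229 CPM (log2 change 1.67, SE 0.20, edgeR adjusted p = 0.0052). Csrp1 and Csrp2, LIM-domain proteins of smooth muscle, had log2 changes of 1.31 (SE 0.20) and 1.40 (SE 0.29), with edgeR adjusted p-values of 0.0113 and 0.0267. Pdlim7, an actin-associated LIM protein, rose by a log2 change of 1.16 (SE 0.22, edgeR adjusted p = 0.0221). Nexn, nexilin, an actin-binding protein of muscle and adhesions, reached 186 and 132 CPM, above the 90.2 and 92.1 CPM of mesothelial cells (log2 change 0.85, SE 0.21, edgeR adjusted p = 0.047).

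Zyx, Vcl and Flna, which serve adhesions and the actin cortex of many cells, did not pass. Zyx, zyxin, was at 157 and 132 CPM in Wt1 mutant cells and 146 and 149 CPM in control mesothelial cells. Vcl, vinculin, was at 200 and 125 CPM against 135 and 107 CPM. Flna, filamin A, was at 560 and 364 CPM against 412 and 326 CPM. The classes overlapped for each of these 3 genes. Approximate 95% intervals of the log2 change were -0.36 to 0.40 for Zyx, -0.02 to 0.94 for Vcl and -0.13 to 0.87 for Flna, so changes within these bounds cannot be told from none. They are normal intervals from the SE on few sums, and are narrower than the edgeR test would give. Pdlim3, a LIM protein of actin bundles in muscle, was at 74.4 and 67.9 CPM against 57.0 and 56.2 CPM, without overlap, and missed the threshold (edgeR adjusted p = 0.226).

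Some parts of the module remained low in Wt1 mutant cells. Synpo2, synaptopodin-2 of dense bodies, stood at 30.6 and 24.8 CPM, near the 21.2 and 23.5 CPM of control mesothelial cells, while mutant smooth muscle cells had 197 and 186 CPM. Its log2 change was 0.35 (SE 0.19, edgeR adjusted p = 0.294) against mesothelial cells and -2.84 (SE 0.11, edgeR adjusted p = 2.4e-06) against smooth muscle cells. Kcnmb1, the beta subunit of the calcium-activated potassium channel, had 5 and 8 UMIs in Wt1 mutant cells, 0.75 and 0.55 CPM, against 5.66 and 6.97 CPM in mutant smooth muscle cells (log2 change -3.38, SE 0.44, edgeR adjusted p = 0.00128). Casq2, a calcium-storage protein, had 0 UMIs in Wt1 mutant and in all smooth muscle cells, where 3 counts would be 0.452 and 0.208 CPM in the Wt1 mutant cells, and 2 and 7 UMIs in control mesothelial cells. Ldb3, an adaptor of the Z-disc, Sorbs2, an adhesion adaptor, and Pcp4, a calmodulin regulator, stood under 20 CPM in Wt1 mutant, mesothelial and smooth muscle cells and were called in neither comparison.

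Against control mesothelial cells, 16 of the 32 module genes tested were called higher and 0 lower (edgeR quasi-likelihood test on sums per library, adjusted p under 0.05), where 5.03% of all 13863 genes tested were called higher, 6.61% lower and 11.6% in either direction. The median log2 change was 0.89 over the 32 genes and 0.01 over all genes. Both mutant libraries lay above both controls for 23 of the 32, against 24% of all genes, and below both for 2, against 29.6%. The log2 change was above 0 for 30 of 32, against 50.8% of all genes. The members were chosen with earlier results of these data known, so these shares describe the list and are not an independent test of it. Kcnmb1 and Casq2 had too few counts and Myh11 sets the classes, so none of the 3 was tested. Leaving out control 1 reduced the 16 to 5 (Myocd, Acta2, Actg2, Tagln and Cnn1), and leaving out control 2 reduced them to 9. With the mixed-profile cells of control 2 kept in the mesothelial reference, Tagln and Myocd remained, and all 16 genes kept their direction under each of these 3 settings.

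Markers of other cells differed between the compared sums. The 10 mesothelial markers summed to 749 and 416 CPM in Wt1 mutant cells, with 1 and 0 of them at 0, and to 5539 and 4653 CPM in control mesothelial cells, with none at 0. In the Wt1 mutant cells of mutant 1, 6 erythroid markers summed to 2022 CPM and 7 epithelial markers to 640 CPM, none at 0, against 17.0 and 139 CPM in mutant 2. Without the Wt1 cells that lay in clusters of other types, 114 and 573 cells remained, and the count of called module genes was again 16 of 32. No cluster was named erythroid, and the Des cluster, which was kept, had 288 CPM of Hba-a1 in mutant 1. This count therefore does not bear on the erythroid markers.

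Mutant smooth muscle cells, the second reference, come from the same 2 libraries, and library was a block in that test. Of these smooth muscle cells, 52.5% and 37.8% lay in the Des cluster. Of 33 genes tested, 26 were lower in Wt1 mutant cells and 0 higher, where 6.74% of all 12798 genes were called lower, 7.31% higher and 14% in either direction. The median log2 change was -0.69, against -0.02 over all genes. Both Wt1 sums lay below both smooth muscle sums for 27 of the 33, against 13.4% of all genes. Both classes are cut on Myh11, so genes that go with Myh11 from cell to cell differ in part by construction, and these values describe the size of the step. The steps were largest for Kcnmb1, Synpo2, Nexn (-2.11, SE 0.12), Cnn1 (-2.01, SE 0.16) and Myocd, and smaller than the median for Tpm4 (-0.41, SE 0.06) and Actn1 (-0.44, SE 0.08). Tagln was at the median (-0.68, SE 0.05). In 1 fit over 8 sums, with the control sums added and no block, 7 module genes were called. Fits with a mutant library left out were of that form, so they are not the blocked test less a library. The median log2 change over the module genes was -0.68 without mutant 2 and -0.88 without mutant 1. All 26 genes kept their direction in both. Without library as a block 0 genes were called by edgeR, with 1220 genes of 12798 at an unadjusted p under 0.05.

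**Figure D3:**
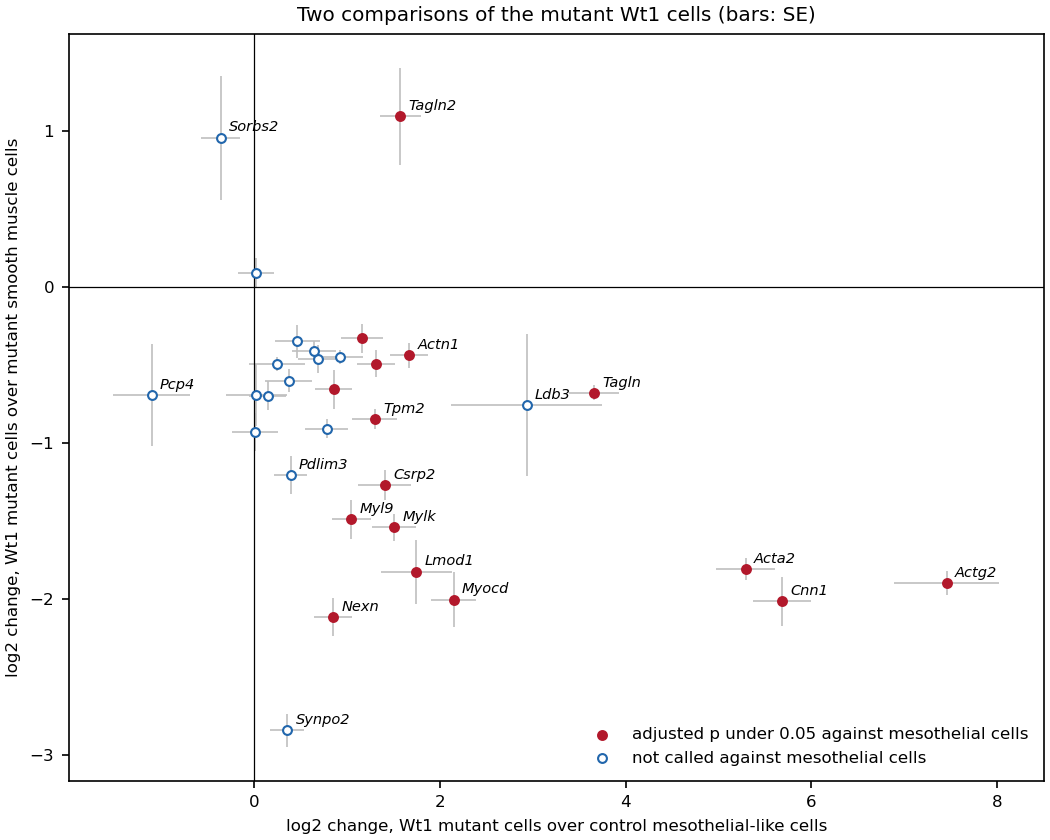
Log2 change of each gene tested in both comparisons, with bars of 1 SE. The x axis is Wt1 mutant cells over control mesothelial cells and the y axis is Wt1 mutant cells over mutant smooth muscle cells. Red points had an adjusted p under 0.05 against mesothelial cells. Most called genes lie at the lower right, higher than mesothelial and lower than smooth muscle cells. Tagln lies nearer 0 on the y axis than Acta2, Actg2 and Cnn1. Tagln2 lies above 0 on both axes, and Synpo2 is lowest on the y axis.

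In the 2 comparisons, which share the Wt1 mutant sums, 14 module genes were called higher than in mesothelial cells and lower than in smooth muscle cells, where 1.38% of the 12696 genes tested in both were. These were Myocd, both actins, Mylk, Myl9, Ppp1r12b, Tagln, Cnn1, Tpm2, Lmod1, Actn1, Csrp1, Csrp2 and Nexn. The calls against smooth muscle are between classes cut on Myh11. They arise in part by construction, so the share over all genes is not a like background for this count. Another 2, Tagln2 and Pdlim7, were higher than in mesothelial cells with no call against smooth muscle. A set of 12, among them Synpo2, Smtn, Tpm1 and Cald1, was called only as lower than in smooth muscle. As a share of the smooth muscle level in the same library, 19 genes stood at 50% or more in both libraries and 10 between 10% and 50%. The 10 were Myocd, Acta2, Actg2, Myl9, Mylk, Cnn1, Lmod1, Synpo2, Csrp2 and Nexn, and nearest to the 50% bound were Csrp2 below it, at 49.2% in mutant 1, and Ldb3 above it, at 50.6% in mutant 2. Of the other 6, Myh11 was under 10% in both libraries, Smtn, Pdlim3, Kcnmb1 and Pcp4 were on either side of a bound, and Casq2 had no counts. Under the 50 CPM bound for being on, Ppp1r12b, Smtn and Cnn1 passed in mutant 1 alone.

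Cells over the Myh11 threshold, with or without a Wt1 UMI, were compared between genotypes, so the mutant class here holds the dual cells as well. Of 33 module genes, 0 were called by edgeR, and 1 of 12472 genes was called at all (0.00802%), with 1305 genes, 4 of them in the module, at an unadjusted p under 0.05. The log2 change was above 0 for 18 of the 33, against 51.9% of all genes. DESeq2 called 3 module genes, Tagln2 and Tagln as higher in mutants and Nexn as lower, among 182 genes. In edgeR the module changes with the smallest p were Tagln2, 1.85 (SE 0.38, edgeR adjusted p = 0.137), and Nexn, -1.33 (SE 0.29, edgeR adjusted p = 0.14). The mutant class also differs in make-up, since 72.2% and 49.0% of its cells lay in the Des cluster, against 0 of 27, which allows up to 11.1% (3 counts of the total), and 5 of 158 in the controls. Without the cells that had Wt1 UMIs the mutant shares were 52.5% and 37.8%.

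Mutant smooth muscle cells inside the Des cluster had less Nexn and more Tagln and Tpm2 than those outside it. Nexn stood at 391 and 293 CPM inside and 899 and 954 CPM outside, and at 1329 and 1365 CPM in control smooth muscle cells outside it. Tagln went the other way, with 4406 and 2971 CPM inside and 1593 and 2029 CPM outside. Tpm2 did as well, with 1202 and 1088 CPM inside and 539 and 762 CPM outside. For these 3 genes the classes did not overlap, and no test was made because all cells were clustered on the other genes of the same profiles. Acta2 overlapped, at 3597 and 4188 CPM inside and 2394 and 3761 CPM outside. Against only the smooth muscle cells outside the Des cluster, a comparison chosen after the data were seen, Tagln and Tpm1 in Wt1 mutant cells had log2 changes of -0.03 (edgeR adjusted p = 0.899) and -0.03 (edgeR adjusted p = 0.896). Synpo2, Nexn, Myocd and Acta2 stayed lower there, by log2 changes of -2.82, -2.53, -1.94 and -1.55 (edgeR adjusted p up to 3.94e-06). Of 32 module genes tested there, 20 were called lower and 3 higher, beside 954 lower and 1477 higher of all 12477 genes.

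Dual cells, which had Wt1 UMIs and Myh11 over the threshold, had most module genes at levels near those of smooth muscle cells. Both classes are selected by the same Myh11 threshold, so genes that go with Myh11 are brought to like levels in part by construction, and these values are a description. Acta2 was at 3034 and 3381 CPM, 102% and 85.7% of mutant smooth muscle cells without Wt1 in the same library. Actg2 was at 92.7% and 108%, Mylk at 101% and 99.5%, Cnn1 at 110% and 140%, Myocd at 84.8% and 82.4%, and Tagln at 144% and 130%. Nexn was lower, at 319 and 254 CPM, which is 49.2% and 37.9%. Synpo2 was at 61.4% and 97.8%, and Tagln2 at 105% and 241%. Kcnmb1, nearly silent in the other Wt1 mutant cells, stood at 7.61 and 10.9 CPM in dual cells. Dual cells had median depths of 58786 and 24968 UMIs, above the 48014 and 19560 of Wt1 mutant cells and the 30133 and 14374 of smooth muscle cells, and the part of doublets or of depth in these values was not tested. Most dual cells lay in the Des cluster, 62 of 64 and 88 of 89. So did 52.5% and 37.8% of the smooth muscle cells they are set beside, so the classes are alike in part through this shared cluster. Mutant smooth muscle cells outside it had 2394 and 3761 CPM of Acta2, 1593 and 2029 CPM of Tagln and 899 and 954 CPM of Nexn.

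Within the Des cluster, the level of Acta2 differed less with the number of Wt1 UMIs than between the 2 libraries at each count. It stood at 2000, 1906 and 2109 CPM in cells of mutant 1 with 0, 1 and 2 or more Wt1 UMIs, and at 1772, 1627 and 1716 CPM in mutant 2. Tagln stood at 2766, 3156 and 3189 CPM in mutant 1 and at 1934, 2199 and 2306 CPM in mutant 2, lowest in cells without a Wt1 UMI in both libraries. Deeper cells are more likely to show a Wt1 UMI, and the median depth rose from 31849 to 55252 UMIs over these bins in mutant 1 and from 14148 to 27454 in mutant 2. The share of cells over the Myh11 threshold was 44.2% without and 37.6% with a Wt1 UMI in mutant 1, and 16.9% and 16.6% in mutant 2.

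**Figure D4:**
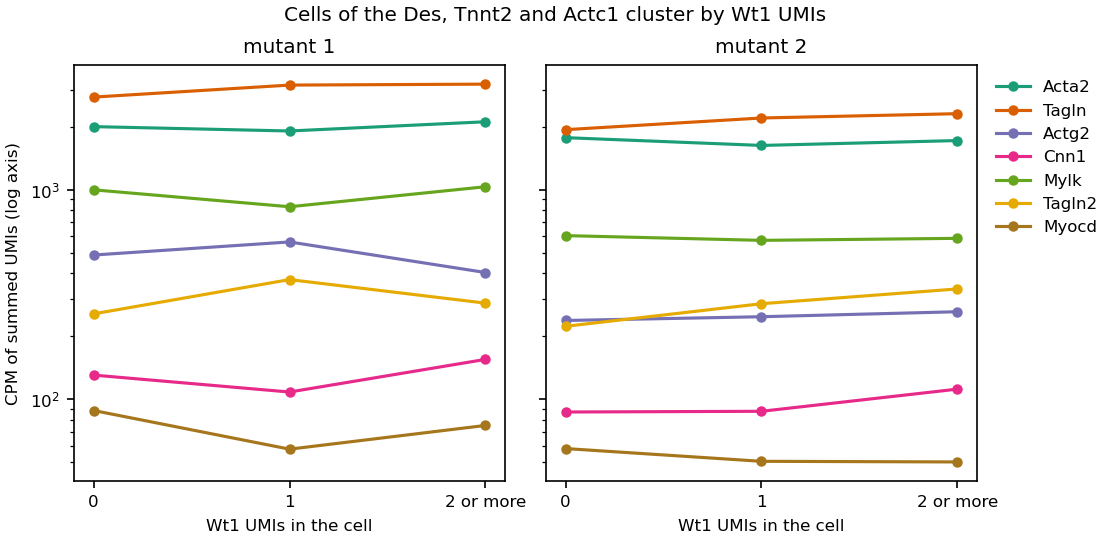
CPM of summed UMIs (log axis) of 7 module genes in cells of the Des cluster with 0, 1 or at least 2 Wt1 UMIs, in each mutant library. No gene changes by as much as 2-fold along a line: Acta2 ranges from 1906 to 2109 CPM in mutant 1 and from 1627 to 1772 CPM in mutant 2.

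Single Wt1 mutant cells varied widely. The class pools cells of several clusters, with 88.8% and 76.5% of its cells in the Des cluster, and the spread within clusters was not examined. In Wt1 mutant cells under the Myh11 threshold, the middle 50% of cells had 0.31 to 9.98 Acta2 UMIs per 10000 in mutant 1 and 0.62 to 12.8 in mutant 2. The median for Tagln was 7.48 and 8.25 per 10000. For Actg2 the medians were 0.08 and 0, and 50.9% and 44.1% of the cells had an Actg2 UMI. No single cell held more than 11.7% of the UMIs of any of the 8 genes examined this way in the Wt1 mutant cells. In the control mesothelial cells of control 1, by contrast, 1 cell held 47.4% of the few Acta2 UMIs.

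To see how many muscle-restricted genes 1 cell carried, each cell was thinned to 5000 UMIs and the detected genes were counted among Acta2, Tagln, Actg2, Cnn1, Myh11, Myocd and Lmod1. Over all mutant cells with a Wt1 UMI, dual cells included, the median was 3 of the 7 in mutant 1 (178 cells) and 2 in mutant 2 (666 cells). Cells outside the Des cluster are among them. At least 3 were found in 66.3% and 44.7% of these cells, and none in 9.55% and 9.76%. In control mesothelial cells, at least 3 were found in 2.61% and 2.07%, and none in 61.7% and 54.9%. Mutant smooth muscle cells, where Myh11 is present by rule, had at least 3 in 91.5% and 95.8%. Epithelial-, endothelial- and immune-like cells of the mutants had at least 3 in 8.70% and 6.41%, and none in 69.6% and 74.4%. Cells under 5000 UMIs were left out, which took 2 and 1 mutant cells with a Wt1 UMI, 9 and 18 mutant smooth muscle cells, 0 and 15 control mesothelial cells, and 4 of 27 and 37 of 115 epithelial-, endothelial- and immune-like mutant cells.

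**Figure D5:**
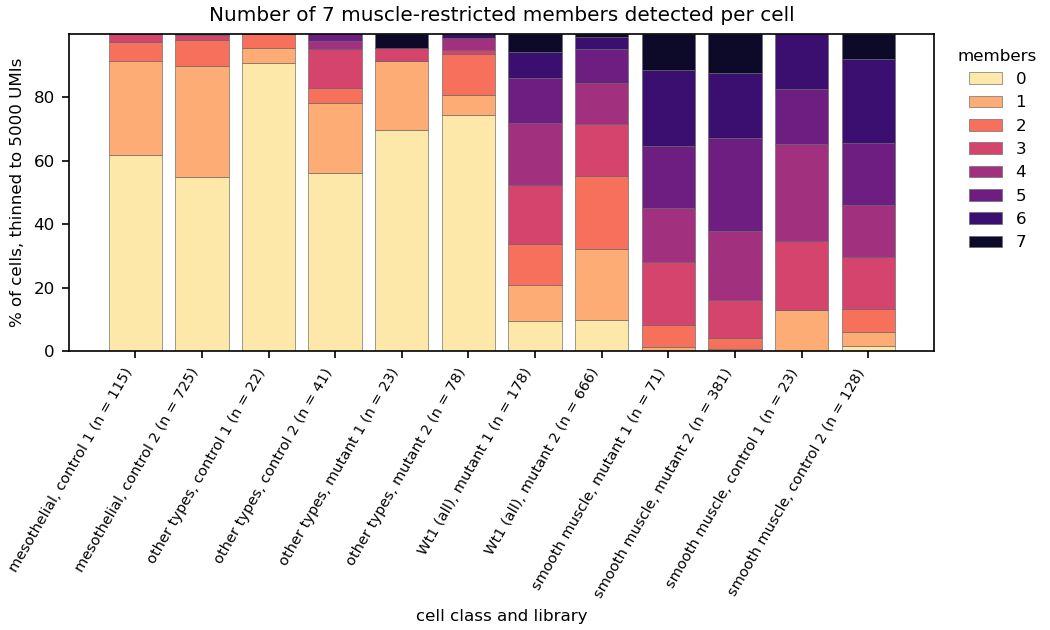
Share of cells, in percent, by the number of 7 muscle-restricted genes detected after thinning to 5000 UMIs, for each class and library. Control mesothelial cells mostly show 0 or 1 gene, smooth muscle cells mostly 3 or more, and mutant cells with a Wt1 UMI spread over the whole range, with 66.3% and 44.7% at 3 or more.

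Within the mutant cells with a Wt1 UMI, Acta2 varied with some module genes from cell to cell and not with others. On the log scale after thinning, Pearson's r with Acta2 over the 178 cells of mutant 1 and the 666 cells of mutant 2 was 0.78 and 0.65 for Tagln, 0.70 and 0.63 for Actg2, 0.69 and 0.62 for Myl9, and 0.66 and 0.51 for Tpm2. Of the other genes restricted to muscle, it was 0.59 and 0.51 for Cnn1, 0.35 and 0.34 for Lmod1 and 0.24 and 0.24 for Myocd. More widely used genes also went with Acta2, at 0.59 and 0.41 for Myl6, 0.57 and 0.46 for Tpm1 and 0.36 and 0.34 for Flna. It was 0.06 and 0.04 for Tagln2, 0.11 and 0.04 for Zyx, and -0.09 and -0.03 for Wt1. The cells of 1 library share its chemistry and free RNA, and r is limited by sparse counts, so these values are a description. They also pool clusters, since 91.7% and 79.5% of the mutant cells with a Wt1 UMI lay in the Des cluster.

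Other genes of the pathway were taken from 3 lists, chosen with earlier results of these data known, so counts in them are a description. Of 20 tested genes of smooth muscle outside the module, 5 were called higher and 2 lower than in control mesothelial cells, against 5.03% and 6.61% of all genes, with a median log2 change of 0.55. Des, desmin, the intermediate filament of muscle, stood at 941 and 600 CPM against 23.1 and 26.2 CPM (log2 change 5.00, SE 0.30, edgeR adjusted p = 0.000927). Jph2, junctophilin, which ties the cell membrane to calcium stores, rose by 4.26 (SE 0.52, edgeR adjusted p = 0.00548). The size of that change depends on the count prior, with 1 and 6 Jph2 UMIs in control mesothelial cells and 55 and 71 in Wt1 mutant cells. Cacna1h, a calcium channel, was lower by a log2 change of -1.53 (SE 0.24, edgeR adjusted p = 0.0119). Des also led the cluster that holds most Wt1 mutant cells, so its level is a description.

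Of 14 non-muscle actomyosin genes, 0 were called by edgeR in either direction, 2 had an unadjusted p under 0.05 and 1 was called by DESeq2, with a median log2 change of 0.11. With 11.6% of all genes called, a count of 0 in 14 is near the background and is not a result about these genes. The 3 with the smallest p were Flnc at -0.65 (edgeR adjusted p = 0.0997), Myl12b at -1.0 (edgeR adjusted p = 0.0869) and Pfn1 at 0.70 (edgeR adjusted p = 0.29).

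Of 8 tested cardiac and striated muscle genes, 3 were called higher, against 5.03% of all genes. Actc1, cardiac actin, reached 37.2 and 83.1 CPM, above 0.72 and 0.74 CPM (log2 change 6.43, SE 0.62, edgeR adjusted p = 0.00246), where control 1 holds only 3 UMIs. Nppa, the atrial natriuretic peptide, rose by 5.11 (SE 0.61, edgeR adjusted p = 0.00501), and Tnnt2, cardiac troponin T, by 1.53 (SE 0.23, edgeR adjusted p = 0.00961). Nppa had only 1 and 2 UMIs in control mesothelial cells and 46 and 61 in Wt1 mutant cells, so the size of its change depends on the count prior. Actc1 and Tnnt2 also lead the Des cluster, so their levels are a description.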

How the data were processed

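Sorted lung cells were profiled with a 10x Chromium 3′ V3 kit, per the labels' protocols. The deposited values are UMI counts per gene and barcode, made with Cell Ranger 6.0.2 on mm10, per the submitters' processing notes, and the authors applied no normalization. The annotation release and the use of strand are not given in the sources used here. Barcodes with at least 1000 genes and at most 15% mitochondrial UMIs were kept, the highest Scrublet scores (scanpy 1.11.5) were removed at 0.8% per 1000 barcodes because its automatic threshold failed, and cells were clustered (Leiden, resolution 0.4) without the 35 genes. A cluster with at least 66% of all markers within 2-fold of the other cells of its main library was left out as mixed.

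UMI counts were summed per class and library and tested with edgeR 4.0.16 (filterByExpr, TMM, quasi-likelihood, two-sided, Benjamini-Hochberg over all genes tested). DESeq2 1.42.0, RLE size factors, no filter, other thresholds, other references, doublets kept and each library left out were alternatives. On simulated data, recovery of genes changed 2-fold was 48% against mesothelial cells (13863 genes) and 94% against smooth muscle cells (12798 genes). It was 28% for smooth muscle between genotypes (12472 genes). Only genes with enough expected counts in every sum were changed, so recovery does not cover low genes such as Ldb3 and Kcnmb1. The text names all 35 genes, up to 3 genes of each other list with the smallest p, Myrf and Wt1. A further gene list is not reported here. The members and lists were chosen with earlier results of these data known. Replicate libraries differed beyond sampling noise, with chi-square over its degrees of freedom of 59.3 in controls and 244 in mutants, and none was counted as a repeat. Gene locations come from GENCODE vM21, which matched 32158 of 32285 gene IDs.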

Additional observations from a re-analysis of the deposited data

How the results depend on the processing

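Against mesothelial cells, 1614 genes were called, and 654 with control Wt1 cells as reference, 329 with mixed-profile cells kept, 2967 without the low-count filter and 694 to 4172 with 1 library left out. Called module genes numbered 16, and 2 with mixed-profile cells kept and 5 to 21 with 1 library left out. Against smooth muscle cells, 1798 genes were called, and 217 in 1 fit over 8 sums without the library block, 666 with DESeq2, 1197 with at least 2 Wt1 UMIs and 108 to 409 with 1 library left out. Module genes there numbered 26, and 7 in that fit over 8 sums without the block and 2 to 14 with 1 library left out, from a fit in which the lone sum is assumed to vary like the others. Between genotypes 1 gene was called in smooth muscle cells, and 182 with DESeq2, 2 at a Myh11 threshold of 5, 2 with mixed-profile cells kept, 242 without the filter and 44 to 492 with 1 library left out. Module genes there numbered 0, and 3 with DESeq2, 1 without the filter and 0 to 3 with 1 library left out. Mutant cells were picked by a Wt1 UMI, but control mesothelial cells by cluster. With control Wt1 cells as reference, 12 of 32 module genes were called, all of them among the 16. With Wt1 cells over the Myh11 threshold included, 22 of 33 were called against mesothelial cells. That setting was chosen after the data were seen. The cause of these shifts was not tested. Fewer samples remained in the leave-one-out fits. All 16 and 26 called genes kept their direction under every alternative run.

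The labels do not say what a replicate number marks. Deviations of same-numbered libraries correlated at 0.43 against mesothelial cells and 0.24 between genotypes, over only 2 pairs. With the replicate block, 3831 genes and 22 module genes were called against mesothelial cells, and 959 and 6 between genotypes in smooth muscle. Without the block, 0 genes and 0 module genes were called against smooth muscle cells.

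Direction changed only for genes with no call in the reported tests. Against mesothelial cells, log2 changes became -0.028 (control Wt1 cells as reference) and -0.075 (mixed-profile cells kept) for Srf, -0.00199 (1 fit over 8 sums) and -0.17 (mixed-profile cells kept) for Smtn, and -0.0496 (mixed-profile cells kept) for Zyx. With 1 library left out they ranged from -0.47 to 0.38 for Srf, -0.22 to 0.25 for Smtn, -0.022 to 0.085 for Zyx and -0.037 to 0.48 for Myl6. Against smooth muscle cells, Pcp4 became 3.55 when only those outside the Des cluster were used (edgeR adjusted p = 0.00162) and ranged from -1.01 to 0.37 with 1 library left out. Between genotypes in smooth muscle, the ranges were -0.61 to 0.038 for Myocd and -0.37 to 0.11 for Mylk. At the depth of the 25 smooth muscle cells of control 1, 3 UMIs are 4.92 CPM, which limits low genes such as Kcnmb1 and Ldb3.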
